A study of Mus with 17 samples.

Results

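Collagens are the main fibrous proteins of the extracellular matrix, and this account covers the genes of their chains in mouse liver. The genes were taken as every row whose symbol reads Col, a type number, the letter a and a chain number. This rule gave 44 of the 24937 genes with a value. They were grouped by the supramolecular form of the protein into 11 fibrillar, 9 network-forming, 9 FACIT (fibril-associated collagens that decorate the surface of fibrils), 6 beaded filament, 4 transmembrane, 2 multiplexin (basement membrane collagens with many interruptions), 1 anchoring fibril and 2 other chains.

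A collagen molecule is a triple helix of chains that are equal or that differ, and chains of a type can be made from several genes. Fibrillar chains are secreted as procollagen, trimmed and crosslinked into fibrils, and types I and III make up most of a liver scar. Type IV forms the mesh of basement membranes, and the normal sinusoid of liver has only a thin, discontinuous mesh of this kind. Stellate cells and portal fibroblasts are the known sources of scar collagen, while hepatocytes are a known source of type XVIII.

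The libraries come from whole livers of 17 male C57BL6/JBomTac mice, 1 per mouse. For 52 weeks 8 mice ate a western diet and drank water with fructose at 42 g/L, given to model advanced steatohepatitis. The other 9 mice, of the same age, ate standard chow and drank plain water, and all were fasted overnight before they were killed. Diets were taken from the treatment field, which gives 8 and 9 as the design text does, because the source name carries the western diet label in all 17 samples.

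Libraries held 3604212 to 9071908.5 counts. A count of 0 leaves a limit of 3 counts by counting error alone. Without TMM factors these 3 counts came to 0.331 to 0.832 CPM (counts scaled by library size to a common total). With the TMM factors used for all other CPM, 3 counts in western diet replicate 1 came to 0.8503 CPM. That is the lowest value of Col4a4 and of Col6a6. The hepatocyte markers Alb, Apoa1, Ttr, Hnf4a and Cps1 summed to 6716 to 10567 CPM on western diet and 8628 to 11460 CPM on chow; Alb and Hnf4a fell and the other 3 did not pass. Markers of the exocrine pancreas, 10 genes, summed to 15058 CPM in chow replicate 2 and 4875 CPM in western diet replicate 5, against 164 to 607 CPM in the other 15 libraries. Results are therefore given without these libraries where they move. Of the 44 chains 27 passed the low count filter, which asked in 8 libraries for the CPM that 10 counts make in a library of median size, and were tested. Col4a6 reached that level in 7 western diet libraries and 1 chow library, so it passed largely through the diet in which it was higher, and Col8a1 reached it in 8 and 5; the other 25 reached it in at least 4 libraries of either diet.

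Most tested scar and basement membrane chains were higher on western diet, and 1 transmembrane chain, Col13a1, was lower. Col18a1, the member with the most counts, did not pass, and neither did Col5a3, Col4a3 or Col4a4. Of the 27 chains tested 17 rose, against 24.8% of all genes tested, 1 fell, against 23.6% (48.4% in either direction), and 9 did not pass (edgeR's quasi-likelihood test, adjusted p under 0.05). The 17 include Col4a6, which passed the filter largely through western diet. The median log2 difference of the tested chains, western diet minus chow, was 0.96, and that of all 13204 genes tested was −0.0091. At least 2-fold, 10 chains rose, against 8.96% of all genes. Scaled by library size, with no TMM factors, the median of all genes was 0.12 and 73.5% of all calls were rises, in place of 51.2%. Under that scaling 17 chains rose as well. The share of all genes that rose under it is not given, so that count has no baseline. Against a 1.5-fold change 12 chains rose (glmTreat; 8.39% of all genes) and 1 fell (1.48%). Without the 2 libraries with pancreatic transcripts 16 of 26 tested chains rose and 1 fell, and Col4a6 was no longer tested. In that fit 51.9% of all calls were rises. The share of all its genes that rose or fell is not given, so these counts have no baseline either.

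**Figure D1:**
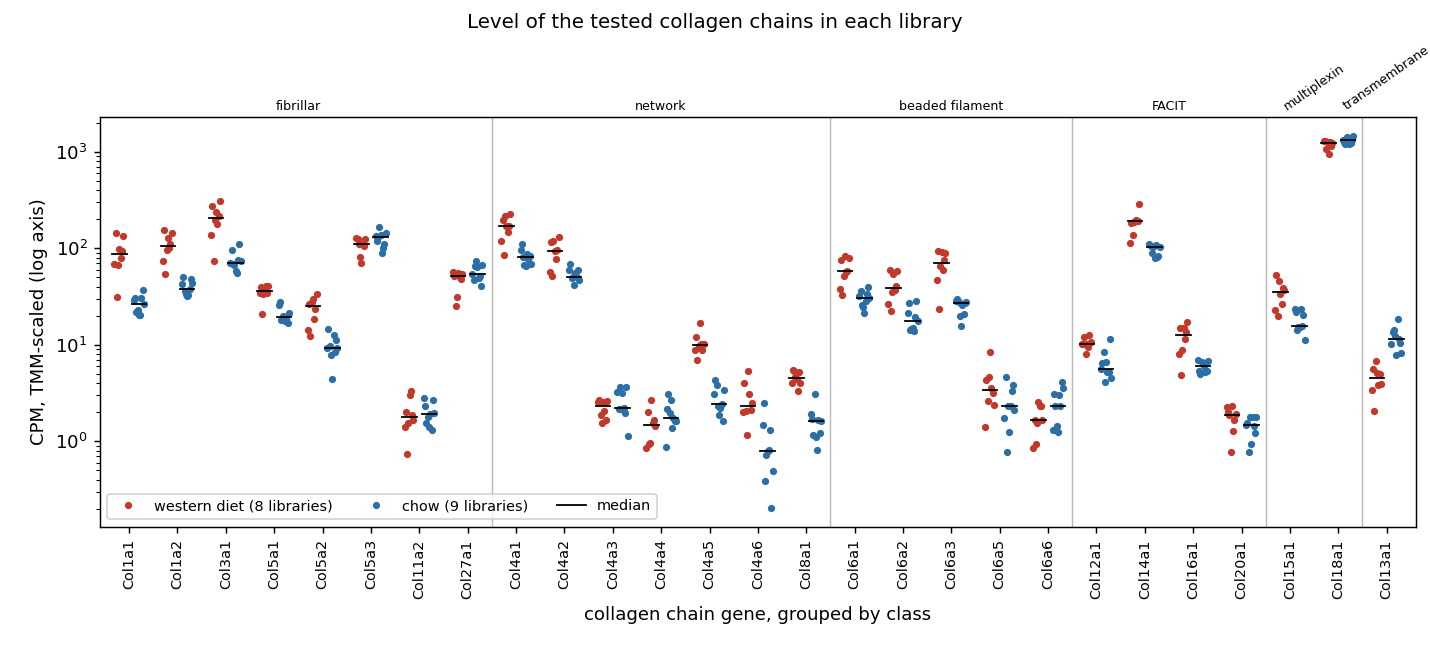
Level of the 27 tested chains in each library, as CPM scaled with TMM factors on a log axis, by class; each point is 1 library (8 western diet, 9 chow) and the black line is the median. Col18a1 stood above all other chains in counts, and Col13a1 was the chain whose western diet libraries all lay below the chow libraries.

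**Figure D2:**
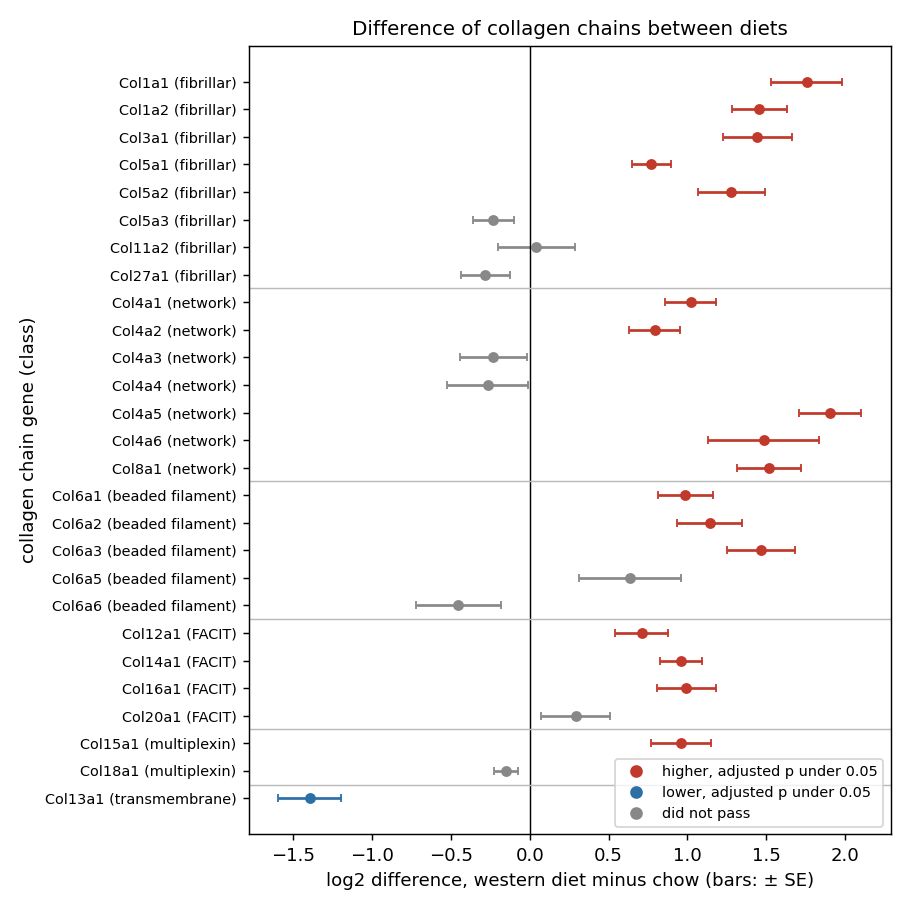
Log2 difference of each tested chain, western diet minus chow, with bars of ± SE, by class. Points right of 0 were higher on western diet: 17 chains passed on that side, Col13a1 passed on the other, and 9 chains in grey did not pass.

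Among fibrillar chains, types I, III and V rose and the rest did not pass. Of 11 members 8 were tested, 5 rose and 3 did not pass. Col1a1, the chain that makes up most of type I collagen (chromosome 11, 94936224 to 94953042 on mm10), ran from 31.6 through a median of 86.9 to 143 CPM on western diet and from 20.2 through 26.7 to 36.6 CPM on chow. Its partner chain Col1a2 (chromosome 6, 4505618 to 4541543) ran from 53.9 through 105 to 156 CPM on western diet and from 32.0 through 37.6 to 49.8 CPM on chow. In Col1a2 the diets did not overlap, and in Col1a1 7 of the 8 western diet libraries lay above the chow range, western diet replicate 3 being the exception. The log2 differences were 1.76 ± 0.23 (± SE) for Col1a1 (adjusted p = 7.06e-06) and 1.46 ± 0.17 for Col1a2 (adjusted p = 2.39e-06).

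Col3a1, the chain of type III collagen, which forms finer fibrils beside type I, had the most counts of the fibrillar chains on western diet, while on chow Col5a3 did. Col3a1 ran from 73.6 through 208 to 312 CPM on western diet and from 55.0 through 70.6 to 111 CPM on chow, a log2 difference of 1.44 ± 0.22 (adjusted p = 4.05e-05). Again 7 of 8 western diet libraries lay above the chow range. Col5a1 and Col5a2, chains of the type V collagen that starts fibrils and sets their width, rose by 0.77 ± 0.12 (adjusted p = 4.22e-05) and 1.28 ± 0.21 (adjusted p = 6.82e-05) in log2.

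The third type V chain did not pass, and neither did Col27a1 or Col11a2. Col5a3 ran from 70.2 through 111 to 129 CPM on western diet and from 88.8 through 132 to 166 CPM on chow (log2 difference −0.23 ± 0.13, adjusted p = 0.148). Col27a1, a fibrillar chain known from cartilage, ran from 24.9 through 51.5 to 57.3 CPM on western diet and from 40.7 through 54.4 to 74.3 CPM on chow (−0.28 ± 0.15, adjusted p = 0.142). In both genes the ranges of the diets overlapped, with 2 western diet libraries below all chow libraries. Col11a2, a chain of the cartilage collagen type XI, was near 2 CPM in either diet, at 0.744 through 1.77 to 3.34 CPM and 1.32 through 1.91 to 2.78 CPM (0.04 ± 0.24, adjusted p = 0.903), and its direction turned when single libraries were left out.

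Most markers of stellate cells and portal fibroblasts were also higher on western diet, where 24.8% of all genes tested rose. Whether they varied with these chains from mouse to mouse was not tested. Of 10 stellate cell markers 7 rose, and their summed level was 614 to 934 CPM on western diet and 445 to 638 CPM on chow. Of 7 tested portal fibroblast markers 6 rose, with sums of 76.2 to 212 and 39.2 to 111 CPM (at most 61.1 CPM on chow without replicate 2). Of 4 tested markers of vascular smooth muscle 1 rose, Tagln, and Acta2 and Myh11 had log2 differences of −0.09 and −0.48 that did not pass. Des, which is in this list and in that of stellate cells, did not pass. The sums of the smooth muscle list were 37.7 to 83.5 and 29.7 to 159 CPM (at most 64.6 CPM on chow without replicate 2). Of 4 tested markers of mesothelium 2 rose, and Msln and Upk3b, at −0.73 and −0.44, did not pass. Their sums were 14.5 to 35.2 and 6.93 to 33.5 CPM (at most 22.4 CPM on chow without replicate 2). No marker of these lists was at 0 in every library of a diet. Their part in the collagen differences was not tested, and in whole liver more cells of a type and more RNA per cell cannot be told apart.

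Among network-forming chains, Col4a1, Col4a2, Col4a5, Col4a6 and Col8a1 rose, and the pair known from the kidney filter did not pass. Of 9 members 7 were tested, 5 rose and 2 did not pass. Col4a6, counted among the rises, passed the low count filter largely through western diet, the diet in which it was higher. Col4a1, which with Col4a2 forms the type IV mesh of nearly all basement membranes (chromosome 8, 11198423 to 11312889), ran from 85.1 through 170 to 224 CPM on western diet and from 64.8 through 81.0 to 111 CPM on chow. Col4a2 (chromosome 8, 11312805 to 11449287) ran from 51.3 through 94.3 to 129 CPM and from 41.7 through 50.9 to 68.1 CPM. Western diet replicate 3 lay within the chow range in both, and replicate 1 did so in Col4a2. The log2 differences were 1.02 ± 0.16 (adjusted p = 4.54e-05) and 0.79 ± 0.16 (adjusted p = 5.44e-04).

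Col4a5 had the largest rise of all tested chains. This chain, which joins either Col4a3 and Col4a4 or Col4a6 in more specialised basement membranes (chromosome X, 141475370 to 141689236), ran from 6.88 through 9.90 to 16.8 CPM on western diet and from 1.63 through 2.42 to 4.36 CPM on chow, 3.74-fold higher (log2 1.90 ± 0.20, adjusted p = 2.56e-07). No chow library reached the lowest western diet library. Its partner Col4a6 (chromosome X, 141165403 to 141474095) ran from 1.15 through 2.29 to 5.30 CPM and from 0.204 through 0.787 to 2.49 CPM (1.48 ± 0.35, adjusted p = 0.00177), and 6 of 9 chow libraries had more than 3 counts. Western diet replicate 5 and chow replicate 2, the libraries with pancreatic transcripts, were the highest of their diets in both chains. Without them the log2 difference of Col4a5 was 1.88, and Col4a6 had too few counts to be tested.

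Most markers of bile duct cells, an epithelium with a basement membrane, were higher on western diet too. Of 6 markers 5 rose, against 24.8% of all genes tested. Their summed levels were 65.1 to 123 CPM on western diet and 51.7 to 98.3 CPM on chow (at most 82.7 CPM without chow replicate 2). Of 6 vascular endothelial markers 3 rose, with sums of 199 to 374 and 186 to 304 CPM (at most 258 CPM on chow without replicate 2). The 3 were Vwf, Plvap and Cd34, and Cd34 is also among the portal fibroblast markers that rose. Of 6 sinusoidal endothelial markers 2 rose and 1 fell, with sums of 245 to 491 and 329 to 403 CPM. The part of these cell types in the type IV differences was not tested.

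Col4a3 and Col4a4, which with Col4a5 form the mesh of the kidney filter, were low in either diet. Col4a3 ran from 1.54 through 2.29 to 2.65 CPM on western diet and from 1.14 through 2.18 to 3.67 CPM on chow (−0.23 ± 0.21, adjusted p = 0.392). Col4a4 ran from 0.8503 through 1.48 to 2.65 CPM and from 0.877 through 1.76 to 3.09 CPM (−0.27 ± 0.26, adjusted p = 0.413).

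Col8a1, a short-chain network collagen of vessel walls (chromosome 16, 57624256 to 57754737), had the third largest fold and no overlap between diets. It ran from 3.34 through 4.50 to 5.48 CPM on western diet and from 0.819 through 1.63 to 3.05 CPM on chow (1.52 ± 0.20, adjusted p = 5.61e-06). Its highest chow library, replicate 4, stood apart from the other chow libraries.

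Of 6 chains of the beaded filament collagen type VI 5 were tested; the 3 general chains rose, and the 2 that can replace the last of them did not pass. Type VI forms microfibrils around cells and links them to the fibrils. Col6a1 ran from 33.1 through 57.8 to 84.0 CPM on western diet and from 21.1 through 30.6 to 39.9 CPM on chow (log2 difference 0.99 ± 0.17, adjusted p = 1.38e-04). Col6a3, the longest chain, ran from 23.4 through 70.7 to 94.4 CPM and from 15.7 through 27.1 to 30.0 CPM (1.46 ± 0.22, adjusted p = 2.76e-05). Western diet replicate 3 lay within the chow range in both, and western diet replicate 1 did so in Col6a1. Col6a2 rose by 1.14 ± 0.20 in log2 (adjusted p = 1.76e-04).

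Col6a5 ran from 1.42 through 3.37 to 8.40 CPM on western diet and from 0.772 through 2.32 to 4.67 CPM on chow (0.64 ± 0.32, adjusted p = 0.109). Without chow replicate 2, its highest chow library, it passed (0.81, adjusted p = 0.0423), and without both libraries with pancreatic transcripts it did not (0.52, adjusted p = 0.134). Col6a6 ran from 0.8503 through 1.66 to 2.53 CPM and from 1.26 through 2.32 to 4.07 CPM (−0.45 ± 0.27, adjusted p = 0.171). Both are neighbours on chromosome 9 and their estimates had opposite signs.

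Of the fibril-associated FACIT chains 9 were members, 4 were tested, 3 rose and 1 did not pass. Col14a1, which binds decorin on the surface of type I fibrils (chromosome 15, 55307644 to 55520803), ran from 113 through 190 to 286 CPM on western diet and from 79.3 through 102 to 112 CPM on chow. The diets did not overlap, by a small margin, and the log2 difference was 0.96 ± 0.13 (adjusted p = 1.05e-05). Col16a1, a smaller chain of the same class, ran from 4.83 through 12.6 to 17.1 CPM and from 5.02 through 6.01 to 7.01 CPM (0.99 ± 0.19, adjusted p = 2.23e-04). In Col16a1 western diet replicate 3 lay below every chow library and the other 7 lay above them all.

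Col12a1, which bridges fibrils in tissues under strain, rose by 0.71 ± 0.17 in log2 (adjusted p = 0.00169), with 2 of 8 western diet libraries above the highest chow library. Col20a1 ran from 0.770 through 1.88 to 2.30 CPM on western diet and from 0.772 through 1.46 to 1.79 CPM on chow (0.29 ± 0.22, adjusted p = 0.284).

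The multiplexins Col15a1 and Col18a1 differed from each other. Col15a1, found in the outer zone of vessel basement membranes (chromosome 4, 47207655 to 47313167), ran from 20.1 through 35.2 to 53.1 CPM on western diet and from 11.1 through 15.7 to 23.5 CPM on chow (0.96 ± 0.19, adjusted p = 3.78e-04). Col18a1, whose last domain is released as endostatin (chromosome 10, 77052178 to 77166530), had the most counts of all members. It ran from 952 through 1241 to 1297 CPM on western diet and from 1201 through 1311 to 1471 CPM on chow (−0.15 ± 0.074, adjusted p = 0.104). The ranges of Col18a1 overlapped, with 3 western diet libraries below all chow libraries, and DESeq2 called it lower (−0.16, adjusted p = 0.0395).

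Col13a1 was the only tested transmembrane chain and the only tested member that fell. This collagen spans the membrane, sits at cell adhesions and is best known from the neuromuscular junction (chromosome 10, 61838234 to 61979206). It ran from 2.05 through 4.47 to 6.73 CPM on western diet and from 7.87 through 11.4 to 18.3 CPM on chow, 2.63-fold lower (log2 difference −1.40 ± 0.20, adjusted p = 1.05e-05). All 8 western diet libraries lay below all 9 chow libraries. Over 26 alternatives its log2 difference ranged from −1.49 to −1.26, and it was called in each. Of all genes tested, 5.05% had western diet libraries entirely below chow, and 6.98% entirely above, as Col1a2, Col4a5, Col8a1 and Col14a1 had.

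The other 17 members were too low to be tested, and most are known from cartilage, skin, nerve or muscle. The cartilage chains Col2a1, Col9a1, Col9a2, Col10a1 and Col11a1 had at most 3 counts in any library. Col19a1, Col22a1 and the type VI chain Col6a4 had at most 4, 1.5 and 3 counts, and Col26a1, Col17a1 of skin hemidesmosomes and Col28a1 at most 1, 3 and 6. Col24a1, a fibrillar chain of bone, had 1 to 6 counts in the western diet libraries and 1 to 7 in those on chow, the neuronal Col25a1 0 to 8.5 and 1 to 8.5, and Col8a2, the partner of Col8a1, 1 to 17 and 0 to 9.5.

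Among untested members 2 were higher when no low count filter was used, Col9a3 and Col23a1. In Col9a3 the western diet libraries had 4 to 11 counts and the chow libraries 1 to 5, a log2 difference of 1.44 ± 0.35 (edgeR adjusted p = 0.00261). The transmembrane chain Col23a1 had 3 to 21 counts and 2.5 to 8.5 counts, a log2 difference of 1.04 ± 0.31 (edgeR adjusted p = 0.0108). DESeq2 called both as well (adjusted p = 0.00321 and 0.00600). Without the filter, then, 19 of 44 chains rose. That fit covered 20211 genes and 52.6% of all its calls were rises. The share of all its genes that rose is not given, so the count of 19 has no baseline here.

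Col7a1, the anchoring fibril collagen of skin, was high in 2 libraries. It had 237 counts in chow replicate 2 and 28.5 in western diet replicate 5, against 1 to 7.5 in the other western diet libraries and 2 to 11.5 in the other chow libraries. Those are the libraries with pancreatic transcripts, with marker sums of 15058 and 4875 CPM as above, and chow replicate 2 also had the most of the portal fibroblast, smooth muscle, vascular endothelial, bile duct and mesothelial markers among chow libraries. The part of these tissues in the Col7a1 level was not tested. Without the low count filter its log2 difference was −2.29 with edgeR (adjusted p = 0.106) and 0.11 with DESeq2 (adjusted p = 0.883).

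Of 10 pairs of chains, most of which share a molecule or a fibre, 9 had a ratio that differed between diets. The pairs were chosen with earlier results of these data known, several contain Col1a1, and no other gene pairs were compared. Where the chains of a pair had unlike log2 differences above, the ratio restates them. The number of pairs that passed is therefore no separate evidence. The ratio of the counts of a pair within a library needs no scaling between libraries, and the pairs were compared between diets with an exact two-sided permutation test over all 24310 labellings, adjusted over the 10 pairs. Counts per gene depend on transcript length, so a ratio is read only between diets.

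The most uniform shift was within type IV. Col4a2/Col4a1 ran from 0.487 through 0.556 to 0.603 on western diet and from 0.606 through 0.644 to 0.753 on chow, a mean log2 difference of −0.25 (exact permutation p = 4.11e-05, the smallest that the labellings can give, adjusted p = 4.11e-04). The diets did not overlap, by a narrow margin. The spans of these genes overlap by 85 bases, where reads may be assigned to either.

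Within type I the ratio shifted toward Col1a1. Col1a1/Col1a2 ran from 0.587 through 0.824 to 0.946 on western diet and from 0.612 through 0.644 to 0.805 on chow (log2 difference 0.26, exact permutation p = 0.0175, adjusted p = 0.0219). On western diet 4 libraries exceeded the chow range and 1, replicate 3, fell short of it. Col3a1/Col1a1 ran from 1.94 through 2.31 to 2.93 and from 2.42 through 2.79 to 3.16 (−0.29, exact permutation p = 0.00259, adjusted p = 0.00518), with 6 of 8 western diet libraries below the chow range.

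Relative to Col1a1, the chains Col5a1, Col14a1 and Col4a1 were lower on western diet. Col5a1/Col1a1 had medians of 0.435 and 0.863 (log2 difference −0.89, exact permutation, adjusted p = 0.00219), Col14a1/Col1a1 of 2.10 and 3.83 (−0.73, exact permutation, adjusted p = 0.00829), and Col4a1/Col1a1 of 1.77 and 3.15 (−0.67, exact permutation, adjusted p = 0.00518). These 3 pairs share the Col1a1 values, as does Col3a1/Col1a1, and are not independent. The ranges overlapped in each, with 4, 5 and 6 of 8 western diet libraries below all chow libraries.

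Within type VI Col6a3/Col6a1 was higher, with medians of 1.18 and 0.838 (0.43, exact permutation, adjusted p = 0.00829), and 6 of 8 western diet libraries above the chow range. Col6a2/Col6a1 had medians of 0.690 and 0.604 and did not pass (0.16, exact permutation p = 0.0644, adjusted p = 0.0644); it passed without chow replicate 2 (0.20, exact permutation, adjusted p = 0.0239), without chow replicate 5 (adjusted p = 0.0456) and without chow replicate 8 (adjusted p = 0.0402). Col18a1/Col15a1 had medians of 31.4 and 78.8 (−1.08, exact permutation, adjusted p = 0.00144), with 6 of 8 western diet libraries below all chow libraries. Col5a2/Col5a1 was higher, at 0.679 and 0.452 (0.49, exact permutation, adjusted p = 0.0388), a call that was lost in 11 of 17 comparisons with 1 library left out.

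**Figure D3:**
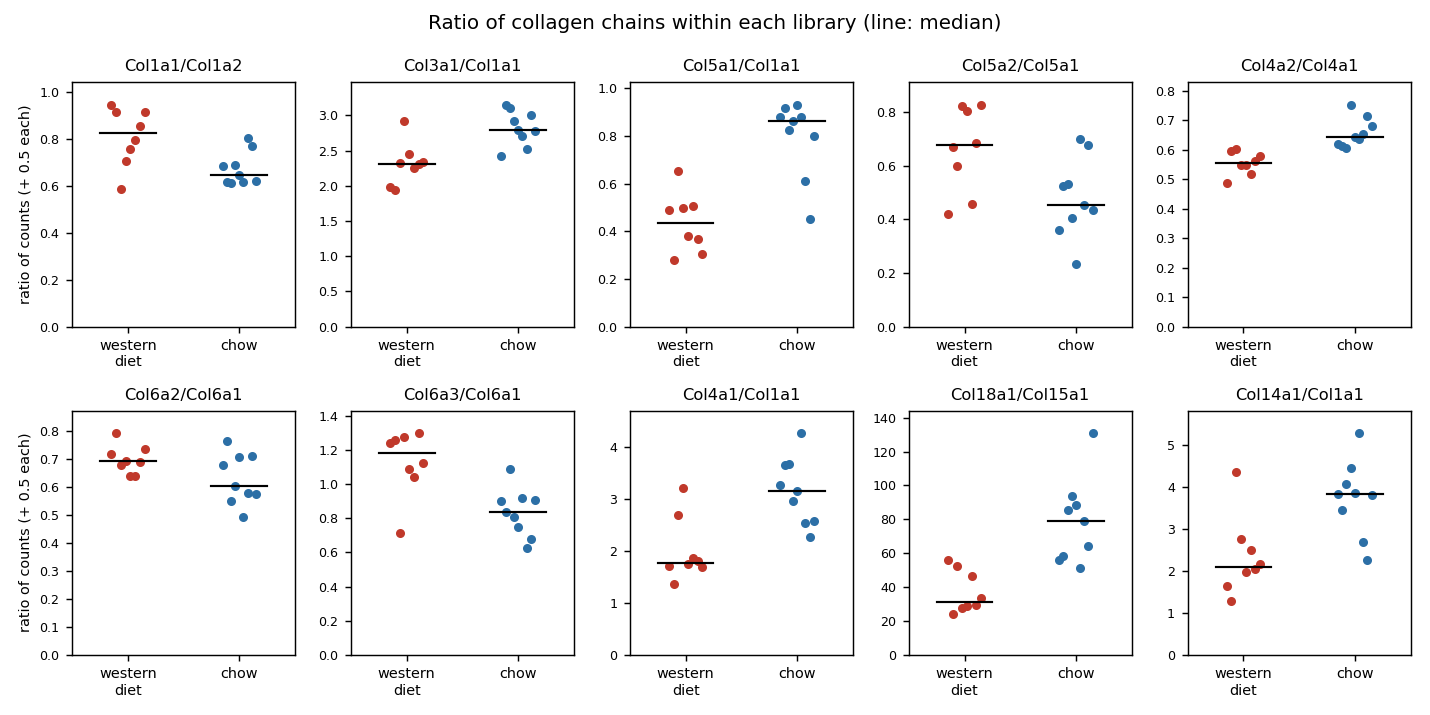
Ratio of the counts of 2 chains within each library, with 0.5 added to each count; each point is 1 library (8 western diet, 9 chow), the line is the median and each axis starts at 0. Col4a2/Col4a1 is the pair whose diets do not overlap, and replicate 3 is the lowest western diet point in Col1a1/Col1a2 and in Col6a3/Col6a1.

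All collagen chains together held 0.183% to 0.323% of the counts of a western diet library, with a median of 0.269%, and 0.175% to 0.2097% of a chow library, with a median of 0.195%. Of these collagen counts Col18a1 alone took 39.4% to 58.8% on western diet and 58.9% to 68.8% on chow. These ranges did not overlap, by a narrow margin. Of the collagen counts other than Col18a1, Col1a1, Col1a2 and Col3a1 took a median of 29.8% on western diet and 18.2% on chow, and Col5a3 a median of 7.65% and 17.2%. The share of Col4a1 and Col4a2 had nearly equal medians, 18.4% and 18.6%. A share falls when the other chains rise, and Col18a1 and Col5a3 themselves did not pass between diets. These are shares of counts, not of molecules, since the length of the transcripts was not used.

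The mice on western diet differed from each other. Western diet replicate 3 was the lowest of its diet in 13 of the 17 chains that rose, and lay within the chow range in 11 of them. On a scale where the chow mean is 0 and the mean of the remaining western diet libraries is 100%, its median position over these chains was 11.9%. Western diet replicate 1, the library with the fewest counts, stood at 44.8%, and replicates 8 and 2 at 186% and 170%. Replicate 8 was the highest of its diet in 7 chains and replicate 2 in 6. Without western diet replicate 3, as without any other single library, 17 chains rose. Over these chains the median SD of log2 CPM between libraries was 0.49 on western diet and 0.31 on chow, larger on western diet in 13 of 17 chains. These chains share the same libraries. The share of all genes with a larger SD on western diet is not given, so that count has no baseline.

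**Figure D4:**
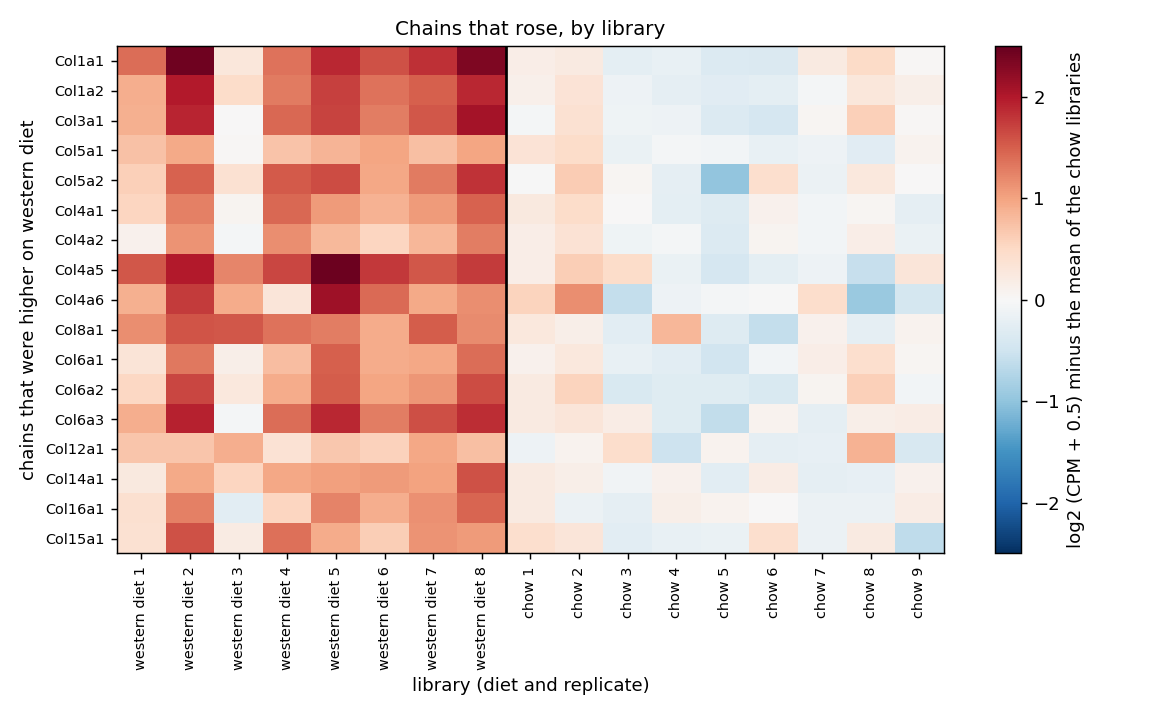
The 17 chains that rose (rows) in each library (columns, by diet and replicate), as log2 (CPM + 0.5) minus the mean of the chow libraries. The column of western diet replicate 3 lies above every chow library in 5 rows (Col1a2, Col4a5, Col8a1, Col12a1 and Col14a1), and replicates 2 and 8 hold the highest value in 13 of the 17 rows.

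Within a diet, the chains of scar fibrils varied together from mouse to mouse. Log2 CPM of Col1a1 was correlated with that of the 10 other chains with the most counts, 10 relations in each diet, with exact permutation p-values adjusted over the 10; these relations were chosen after the values were seen, and each point shares a library. Over the 8 western diet libraries Col1a1 tracked Col1a2 (Pearson r = 0.96, exact permutation p = 9.92e-05, adjusted p = 9.92e-04; Spearman rho = 0.98, exact permutation p = 3.97e-04, adjusted p = 0.00397). It also tracked Col3a1 (r = 0.96, exact permutation p = 5.46e-04, adjusted p = 0.00273; rho = 0.90, exact permutation p = 0.00456, adjusted p = 0.0152). Without western diet replicates 2 and 3, the libraries farthest from the median of Col1a1, r was 0.90 and 0.89.

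The microfibril chains Col6a3 and Col6a1 followed Col1a1 in the same way, with r = 0.95 and 0.88 (exact permutation p = 8.68e-04 and 0.00196, adjusted p = 0.00289 and 0.00490) and rho = 0.90 and 0.88 (exact permutation p = 0.00456 and 0.00724, adjusted p = 0.0152 and 0.0181). Without replicates 2 and 3 their r was 0.80 and 0.81. For Col4a1, Col4a2 and Col27a1 r was 0.82, 0.79 and 0.79 (exact permutation p = 0.0149, 0.0141 and 0.0222, adjusted p = 0.0248, 0.0248 and 0.0317). Their rho was 0.60, 0.57 and 0.52 (exact permutation p = 0.132, 0.151 and 0.197, adjusted p = 0.252, 0.252 and 0.281), and r was 0.49, 0.55 and 0.46 without replicates 2 and 3. Those libraries set the range of Col1a1, so a lower r without them cannot show whether these relations rest on them. Col14a1, Col18a1 and Col5a3 did not pass, with r = 0.64, 0.27 and 0.11 (exact permutation p = 0.09995, 0.502 and 0.774, adjusted p = 0.1249, 0.558 and 0.774) and rho = 0.48, 0.14 and 0.19 (exact permutation p = 0.243, 0.752 and 0.665). Without replicates 2 and 3 their r was 0.79, −0.36 and 0.14, so the direction of Col18a1 turned.

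Over the 9 chow libraries the relation held for Col3a1 (r = 0.91, exact permutation p = 5.79e-05, adjusted p = 5.79e-04; rho = 0.97, exact permutation p = 1.65e-04), Col6a1 (r = 0.90, exact permutation p = 0.00109, adjusted p = 0.00546; rho = 0.88, exact permutation p = 0.00308) and Col1a2 (r = 0.87, exact permutation p = 0.00439, adjusted p = 0.0146; rho = 0.88, exact permutation p = 0.00308). Without chow replicates 6 and 8 their r was 0.81, 0.97 and 0.82. The other 7 chains did not pass on chow, with r from −0.65 for Col27a1 to 0.60 for Col4a2. Whether a relation differed between diets was not tested.

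Of the genes that hydroxylate, fold, trim and crosslink collagen, more rose than fell. Of 28 tested genes 15 rose, against 24.8% of all genes tested, 3 fell, against 23.6%, and 10 did not pass. Their median log2 difference was 0.57. Against a 1.5-fold change 8 of them rose (8.39% of all genes). The largest rises were those of Plod2, a lysyl hydroxylase of the telopeptides (1.40 ± 0.21, adjusted p = 2.16e-05), and of the crosslinking oxidases Loxl1 (1.36 ± 0.21) and Loxl2 (1.24 ± 0.18). The genes that fell were Mia3, whose product TANGO1 loads procollagen into export carriers (−0.78 ± 0.073, adjusted p = 6.58e-08), P4ha2, a subunit of prolyl hydroxylase (−0.57 ± 0.20, adjusted p = 0.0265), and Bmp1, which removes the C-propeptide (−0.38 ± 0.077, adjusted p = 4.78e-04). Mia3 ran from 284 to 364 CPM on western diet and from 441 to 628 CPM on chow.

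Among collagen receptors Lair1, Ddr1, Mrc2 and, near the threshold, Ddr2 rose. Of 8 tested receptors 4 rose, against 24.8% of all genes tested, and 4 did not pass, with a median log2 difference of 0.57. Lair1, an inhibitory receptor of leukocytes, rose by 1.64 ± 0.16 in log2 (adjusted p = 1.83e-07), the receptor kinase Ddr1 by 1.41 ± 0.22 (adjusted p = 2.94e-05) and Mrc2, which takes up collagen fragments, by 1.34 ± 0.19 (adjusted p = 8.69e-06). The integrin subunits Itga1, Itga2, Itga10 and Itgb1 had log2 differences of 0.23, 0.76, 0.01 and −0.11, and did not pass. The discoidin receptor Ddr2 was at 0.38 ± 0.16 (adjusted p = 0.0476), a call that was lost with DESeq2, with no low count filter, against a 1.5-fold change and in 12 of 17 fits with 1 library left out.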

How the data were processed

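Each mouse has a table of expected counts by gene symbol, as deposited by the authors, given in steps of 0.5 with no scaling of libraries; 29.4% to 33.7% of a library's values were not whole. The submitters' processing notes name FastQC, STAR 2.4.1c, HOMER, MultiQC and mm10. The options, strand setting and annotation release are unknown from those notes, so overlapping genes may share reads. Counts were rounded. Of 24940 genes 3 had no value. Genes were kept by filterByExpr, which left 13204, and tested two-sided with edgeR 4.0.16 (R 4.3.3; TMM, robust glmQLFit, glmQLFTest) on diet alone, with Benjamini-Hochberg adjustment over all genes. The SE is the log2 difference over the square root of F. CPM use TMM-scaled library sizes. The fit was also run on simulated counts with the same dispersion for every gene. That setting is simpler than these data, so the run does not bear on the calls given here. Ratios had 0.5 added to each count.

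Nothing in the labels ties mice to litters or cages. Members, gene lists and tests were chosen with earlier results of these data known. Every member is accounted for. Library values were given for the 2 members of a class with the most CPM, the 3 largest rises and falls, and members that fell or did not pass; other genes by the largest differences of a list and those that fell. All 44 symbols matched RefSeq genes of GRCm38.p6 (mm10), and spans are whole genes. DESeq2 1.42.0, limma-voom (limma 3.58.1), RLE factors, library size alone, other filters and thresholds and each library left out were tried. Ratios and correlations were computed with scipy 1.17.1 and plots drawn with matplotlib 3.10.9, under Python 3.11.15.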

Additional observations from a re-analysis of the deposited data

Results flagged for a closer look

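Values of the tested chains, of Col7a1 and of the 10 ratios were checked within each diet for a library that lay far from the others, 76 groups of values in all, and 6 were found; chance flags about 1 group in 20. Of these 3 lay in the libraries with pancreatic transcripts. Col7a1 was at 36.9 CPM in chow replicate 2, with the next chow library at 1.75 CPM, and at 3.22 CPM in western diet replicate 5, with the next at 0.948 CPM. Col6a5 was at 8.40 CPM in western diet replicate 5, with the next at 4.62 CPM. The low end of western diet replicate 3 gave 2 more: Col5a1 at 20.6 CPM, where the other western diet libraries had 33.5 to 40.5 CPM, and the ratio Col6a3/Col6a1 at 0.713, where they had 1.04 to 1.30. Col8a1 was at 3.05 CPM in chow replicate 4, with the next chow library at 1.90 CPM.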

How the results depend on the processing

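No paired analysis was possible because replicate numbers follow accession order and tie no western diet mouse to a chow mouse. The number of chains that rose was 12 to 19 over 26 alternatives and 17 whichever single library was left out; without chow replicate 2 Col4a6 was no longer tested and Col6a5 passed. DESeq2 called 2 chains lower in place of 1. Of the genes that modify collagen 8 rose against a 1.5-fold change in place of 15, a stricter call by construction, and 19 without both libraries with pancreatic transcripts. Of the receptors 3 to 5 rose, and Ddr2 (adjusted p = 0.0476) was the gene most often lost. Except against a 1.5-fold change, the share of all genes called under these alternatives is not given. Their counts of chains, modifying genes and receptors therefore have no baseline. Without the libraries with pancreatic transcripts the ratio Col5a2/Col5a1 no longer passed (0.466) and Col6a2/Col6a1 did (0.216); with single libraries left out they ranged from 0.366 to 0.575 and from 0.120 to 0.199. The other 8 ratios kept their call in all 20 alternatives. The direction of Col11a2 turned with limma-voom (−0.000552), without the libraries with pancreatic transcripts (−0.0274) and in 4 fits that left out 1 library, which ranged from −0.112 to 0.151. On chow, the relation of Col14a1 with Col1a1 had r = 0.00621 with library size alone, and that of Col18a1 r = 0.0305 with RLE factors and 0.112 with library size alone. The cause was not tested for any of these. Depth limits the members at or below 3 counts in every library most.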

Other observations

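Several collagen chains are neighbours on a chromosome, and the values of neighbours are given here side by side with no test. The type IV genes lie in pairs on mm10. Col4a1 and Col4a2 on chromosome 8 overlap by 85 bases and had log2 differences of 1.02 and 0.79. Col4a4 and Col4a3 on chromosome 1 overlap by 114 bases and had −0.27 and −0.23, neither past the threshold. Col4a6 and Col4a5 on chromosome X lie 1274 bases apart and had 1.48 and 1.90. In each of these pairs the members lay on the same side of 0. Col3a1 and Col5a2 on chromosome 1, with 24624 bases between them, had 1.44 and 1.28, and Col6a2 and Col6a1 on chromosome 10, 85161 bases apart, had 1.14 and 0.99. Col6a6 and Col6a5 on chromosome 9, 27823 bases apart, had −0.45 and 0.64, and neither passed. Of the other members, Col10a1 lies wholly within the span of Nt5dc1, so its few counts can come from either gene.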
